A study of Homo sapiens with 16 samples.

Results

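The intervals described here lie in gene-poor stretches of the human genome. They are the count intervals on chromosomes 1 to 22 and X that are over 100 kb from the nearest protein-coding gene body in GENCODE release 44, overlap no annotated gene of any type and are over 500 kb from both chromosome ends. This holds for 4138 of the 74404 intervals counted in the study. The rule uses position and annotation alone, but the intervals were chosen with earlier results of these data known. The counted intervals are the study's own, and whether counts of these libraries shaped that list is not stated. CUT&Tag, in which an antibody brings the Tn5 transposase to chromatin so that DNA beside the target is tagged and sequenced, was done in HEK293, a human embryonic kidney cell line. All cells carried eGFP-YAP, and the series text has them serum-starved before the stress. Libraries were made with antibodies against CTCF, RAD21, H3K27ac and GFP, the last reading eGFP-YAP, from cells with vehicle or with 200 mM sorbitol for 1 h. Each of these 8 groups had 2 libraries, and the column names give vehicle as 0 h, while the protocol has untreated cells taken alongside, so whether time differs with treatment cannot be told apart. The labels do not say whether the 2 libraries came from separate cultures, so p-values measure only the spread between these libraries, which may be technical. They do not say whether the cells were 1 clone, and libraries made with a control antibody were not analysed here.

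Far intergenic DNA holds enhancers that act on distant genes, the binding sites of CTCF that limit chromatin loops, and much of the repeated DNA of the genome. CTCF is a zinc finger protein that binds a long motif and halts cohesin, the ring complex that extrudes loops and of which RAD21 is the closing subunit. H3K27ac is an acetylated histone residue found at active enhancers and promoters, and YAP is a co-activator that binds DNA through TEAD factors, often at enhancers shared with AP-1. Sorbitol outside the cell draws water out of it, which is called hyperosmotic stress, and the series design names the occupancy of proteins that organise chromatin under this stress as its question.

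The intervals were sorted by sequence into 6 classes, because the classes differed more from each other in their counts than the whole set did from the rest of the table. Satellite-like intervals (87) have at least 20% of their bases in GGAAT or its complement ATTCC, the unit of human satellites II and III, which lie beside centromeres and on the short arms of acrocentric chromosomes and are known for being transcribed in stressed cells. Mitochondrial-like intervals (11) align to the mitochondrial genome in blastn, from 20.9% to the whole of their length (3 of them over less than 50%); such nuclear copies are old insertions of mitochondrial DNA. Other repeated intervals (1279) have fewer than 50% of their 32-base words once in the assembly. The remaining 2761 intervals are single-copy, of which 644 hold the CTCF consensus with at most 1 mismatch on either strand, 650 others hold the AP-1 letters TGANTCA or the TEAD letters GGAATG on either strand, and 1467 hold none of these. The classes were set up after counts of these intervals had been seen. GGAATG overlaps the satellite unit, and 82 of the 87 satellite-like intervals hold it, so it is not read as a TEAD site there.

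Sequences of the intervals on which the results turn are given first, all 5′ to 3′ from the hg38 reference. The first 4 show the CTCF consensus in capitals with 20 bases on each side. The intervals around the first pair (minus and plus strand) fell for RAD21, the one around the third (plus strand) fell for CTCF, and the one around the fourth (minus strand) kept a high CTCF count.
chr9:79255074-79255127: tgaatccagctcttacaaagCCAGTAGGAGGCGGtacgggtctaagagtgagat
chr5:50963088-50963141: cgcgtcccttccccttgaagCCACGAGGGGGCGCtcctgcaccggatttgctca
chr5:108642459-108642512: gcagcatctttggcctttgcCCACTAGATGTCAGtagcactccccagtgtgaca
chr11:116276744-116276797: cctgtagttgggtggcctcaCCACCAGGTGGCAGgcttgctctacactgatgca
The next 5 show AP-1 or TEAD letters in capitals (plus strand), in single-copy intervals with large falls and no CTCF consensus within 1 mismatch. The falls are for CTCF on chromosomes 13 and 3 (first pair) and for eGFP-YAP (last 3). The intervals of the last 3 also hold TEAD letters, which are not in capitals. In the first pair the best CTCF match, not printed, has 2 mismatches.
chr13:62358383-62358428: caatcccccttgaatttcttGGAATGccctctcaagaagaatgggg
chr3:94336723-94336768: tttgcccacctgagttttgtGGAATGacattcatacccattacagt
chr5:158054480-158054526: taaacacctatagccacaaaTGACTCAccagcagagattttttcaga
chr12:4031496-4031542: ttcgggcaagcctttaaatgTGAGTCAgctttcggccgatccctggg
chr13:64723973-64724019: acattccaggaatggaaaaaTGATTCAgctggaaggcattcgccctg
The first 60 bases of the satellite-like interval with the most counts follow, with the repeat unit in capitals. The last sequence is 1 period of 139 bases from a repeat on chromosome 21, with capitals for the 114 bases (82.0%) that are equal in the next period. It is the stretch of chr21:7656745-7659878 that best matches its next period. Over that whole interval 44.5% of bases equal the base 139 positions earlier.
chr5:49601414-49601473: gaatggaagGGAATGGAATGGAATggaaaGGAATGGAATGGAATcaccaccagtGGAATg
chr21:7657341-7657479: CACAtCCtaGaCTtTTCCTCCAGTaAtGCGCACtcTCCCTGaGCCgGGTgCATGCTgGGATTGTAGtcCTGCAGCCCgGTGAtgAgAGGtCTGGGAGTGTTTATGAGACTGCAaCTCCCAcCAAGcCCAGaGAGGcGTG

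The far intergenic intervals were short, with a median width of 348 bp, and had a median GC content of 48.9% against 54.5% in the other intervals. Their median distance to a protein-coding gene was 240 kb. Chromosome 2 held the most (414), chromosome 13 the highest density (309, 2.70 per Mb and 17.3% of its intervals), and chromosome 19 only 6. Satellite-like intervals were placed otherwise: 79 of 87 were within 100 kb of an assembly gap, with 16 on chromosome 1, 15 on chromosome 10, 11 on chromosome 16 and 10 on chromosome 17. In intervals 234 to 464 bp wide, the CTCF consensus was in 18.9% of 2080 far intergenic and 16.5% of 26477 other intervals, AP-1 letters were in 11.2% and 11.8%, TEAD letters in 18.9% and 18.0%, and satellite sequence in 2.40% and 0.219%. A match is a description of the letters and no evidence of binding.

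Depth sets what can be seen here. The counts on chromosomes 1 to 22 and X outside the YAP1 gene, called nuclear counts below, were 0.520 to 8.60 M per library (M, 1e6). Mitochondrial intervals took 15.7% and 19.9% of all CTCF counts under vehicle and 32.8% and 33.9% under sorbitol, 34.3% and 38.5% against 44.8% and 46.0% for RAD21, 36.5% and 38.1% against 55.4% and 57.8% for eGFP-YAP, and 1.95% to 2.08% in the 4 H3K27ac libraries. The median count of a far intergenic interval was between 1 and 13 by library, and between 7.52% and 49.6% of the 4138 had no count. Whole-class shares of the nuclear counts, which use every interval, are therefore given before single intervals.

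The far intergenic intervals together took 2.86% ± 0.102 (SD, n = 4 libraries, both treatments) of the nuclear counts of CTCF, 3.77% ± 0.288 of RAD21, 3.48% ± 0.626 of eGFP-YAP and 1.36% ± 0.0785 of H3K27ac. In an exact two-sided permutation test, adjusted over the 6 pairs of targets, H3K27ac was below each of the others and CTCF was below RAD21 (adjusted p = 0.043 each), while CTCF against eGFP-YAP (adjusted p = 0.14) and RAD21 against eGFP-YAP (adjusted p = 0.46, exact) did not pass. This test joins both treatments, and the order of the targets differed between them: with vehicle RAD21 had 4.00%, CTCF 2.95% and eGFP-YAP 2.95%, and with sorbitol 3.54%, 2.78% and 4.02%. With 2 libraries each, the order within a treatment cannot pass an exact test. As a share of all counts, mitochondrial ones included, none of the differences from H3K27ac passed, and the difference of CTCF from RAD21 was 0.034 percentage points in place of -0.905. Without the 9 intervals that exceed 0.1% of the nuclear counts of any library that difference did not pass, at -0.556.

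Levels with vehicle, as counts per 1000000 nuclear counts and per kb of width, ordered the classes differently for each target. Of the single-copy intervals with the CTCF consensus, 94.6% were above the median of the whole table for CTCF, 48.1% for RAD21, 9.16% for eGFP-YAP and 5.28% for H3K27ac. Satellite-like intervals had the reverse order of CTCF and eGFP-YAP, with 12.6% above the table's median for CTCF and 97.7% for eGFP-YAP. For RAD21 63.2% were above it. H3K27ac had the lowest share in both classes, here 0.0%. Other repeated intervals stood near the median of the table for eGFP-YAP (54.7%) and H3K27ac (51.6%), and single-copy intervals with AP-1 or TEAD letters were above it in 33.2% to 36.9% for the 4 targets. The intervals are a shared set for all antibodies, so an interval is not a peak of each target.

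Counts in satellite-like intervals were higher with sorbitol for every antibody. Their CTCF counts were 184 and 215 per 1000000 nuclear counts in the vehicle libraries and 1460 and 1360 in the sorbitol libraries, a ratio of means of 7.08. For RAD21 they were 939 and 922 against 2720 and 2220 (2.66 times), and for eGFP-YAP 2530 and 2800 against 10100 and 8690 (3.53 times). H3K27ac, with very few counts there, had 22.1 and 22.5 against 44.9 and 47.6 (2.07 times). The groups did not overlap for any antibody, and exact permutation of 2 against 2 libraries gives p = 0.33, the smallest it allows. The 41 satellite-like intervals on the same chromosomes outside the far intergenic set had ratios of 4.78, 2.32, 3.30 and 2.17 in the same order of antibodies. The mitochondrial share of CTCF, RAD21 and eGFP-YAP libraries was higher with sorbitol too, as given above, while that of H3K27ac was not; its part in the satellite values was not tested.

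Single satellite-like intervals were called by edgeR's quasi-likelihood test with Benjamini-Hochberg adjustment over all tested intervals of a target (threshold 0.05). For CTCF, 45 of the 45 tested rose, with a median log2 fold change of 3.41; among all intervals tested, 40.2% were called, 19.5% as higher. For eGFP-YAP 72 of 78 rose (median 2.44; 6.83% of all tested were called, 5.34% as higher), for RAD21 14 of 29 rose (median 1.79; 4.79% called, 3.34% as higher), and for H3K27ac 1 of 4 rose (23.1% called, 8.59% as higher). None fell. Intervals with few counts pass the count filter through the group in which they are high, so these counts do not stand for all 87. With GC-corrected offsets 27 of the 29 rose for RAD21, and with scaling to the total nuclear counts 9 did; among intervals with a mean of at least 50 counts, 4 of 4 rose for CTCF, 3 of 4 for RAD21 and 26 of 26 for eGFP-YAP. Without 1 library, 43 to 48 rose for CTCF, 12 to 21 for RAD21 and 60 to 73 for eGFP-YAP.

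The satellite-like interval with the most counts, chr5:49601414-49602859 (hg38), whose first bases are printed above, lies 793 kb from EMB and 0.272 kb from an assembly gap. CTCF counted 75 and 75 fragments there with vehicle and 220 and 220 with sorbitol, which was 14.7 ± 4.31 and 111 ± 4.16 CPM (counts per 1000000 counts, after TMM scaling; SD, n = 2; log2 fold change 2.95, standard error 0.18, edgeR adjusted p = 1.4e-11). RAD21 counted 115 and 48 against 165 and 114 (log2 fold change 1.79, edgeR adjusted p = 0.0028). For eGFP-YAP the counts were 630 and 587 against 1186 and 818 (2.68, edgeR adjusted p = 5.7e-08). All 4 antibodies had both sorbitol libraries above both vehicle libraries once scaled, H3K27ac with 12 and 14 against 63 and 55 raw counts (1.68, edgeR adjusted p = 0.00048).

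**Figure D1:**
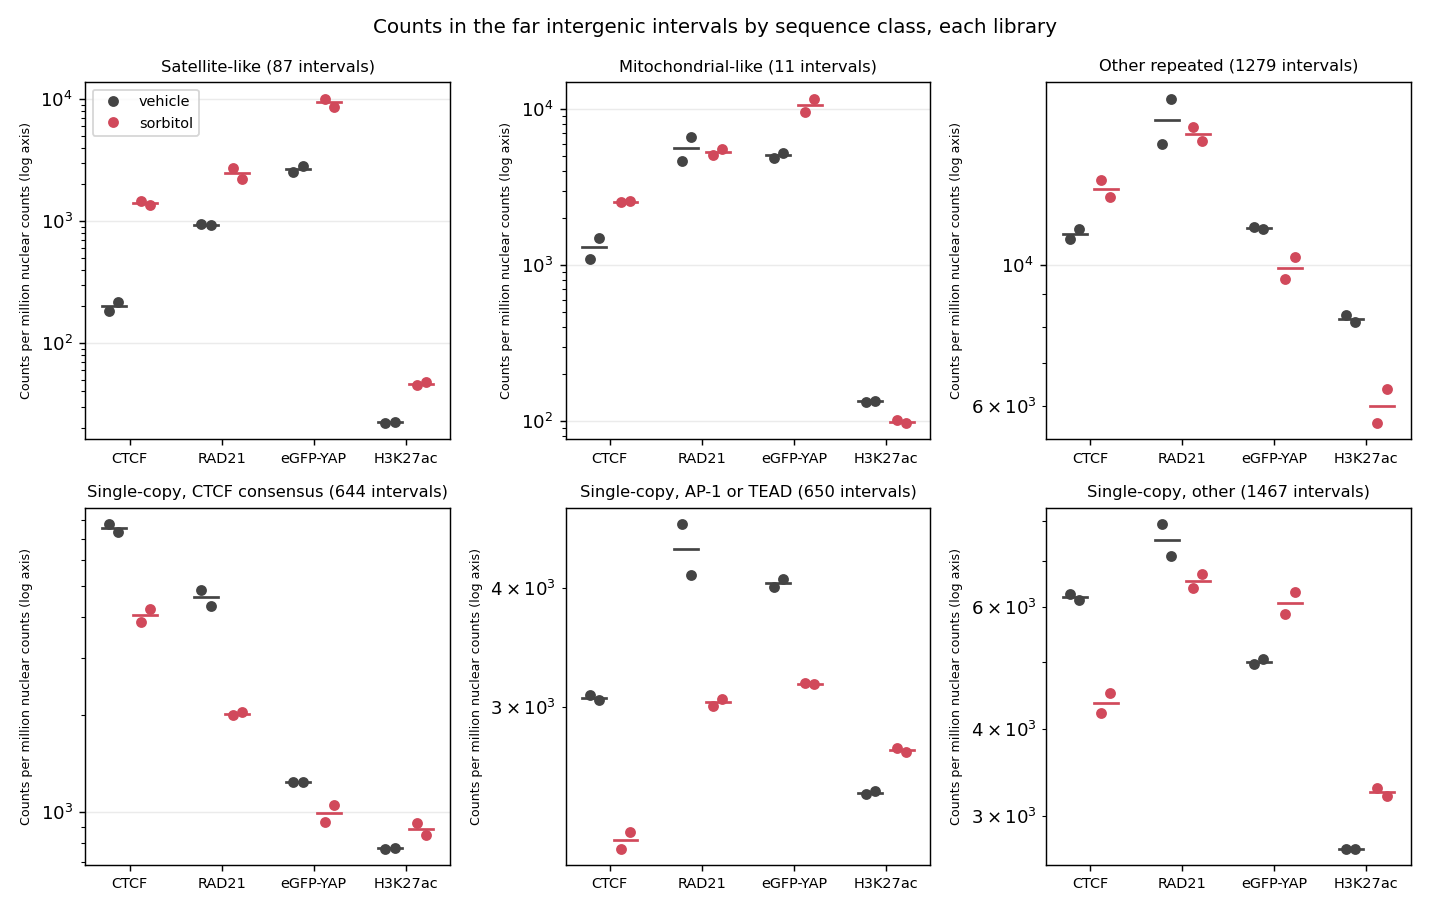
Counts in each class of far intergenic intervals per 1000000 nuclear counts, on log axes whose range differs between panels; each point is 1 library and each bar the mean of 2. In satellite-like intervals the sorbitol libraries lie above the vehicle libraries for all 4 antibodies (7.08 times for CTCF), and in single-copy intervals with the CTCF consensus they lie below them for CTCF and RAD21 (0.537 and 0.437 times).

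Single-copy intervals with the CTCF consensus, the letters that CTCF recognises, went the other way. Their CTCF counts were 7760 and 7360 per 1000000 nuclear counts in the vehicle libraries, against 3880 and 4240 under sorbitol, which is a ratio of 0.537. Their RAD21 counts were 4870 and 4350 against 1990 and 2040, a ratio of 0.437. Both sorbitol libraries were below both vehicle libraries for either protein, and for eGFP-YAP (0.800 times), while H3K27ac was higher with sorbitol (770 and 775 against 924 and 850). Exact permutation p was 0.33 for each of these 4 ratios. The 12909 other nuclear intervals with the same consensus had ratios of 0.794 for CTCF and 0.668 for RAD21.

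Of 497 tested single-copy intervals with the consensus, 143 fell and 16 rose for CTCF, with a median log2 fold change of -0.83 (-0.82 with intervals absent from one group set at their bound). The 11607 other nuclear intervals with the consensus had 3095 that fell and 1390 that rose, with a median of -0.36. Their median was -0.21 with GC-corrected offsets, near the -0.28 of the far intergenic class. With total nuclear scaling it was -0.8 against -1.27. Over all tested intervals 20.7% were called lower for CTCF, so the share of 143 in 497 is to be read against that. For RAD21 4 of 59 fell and none rose (median -1.45; 1.45% of all tested intervals were called lower); for eGFP-YAP none of 14 was called. The direction of the CTCF medians held with GC-corrected offsets (-0.28) and with total nuclear scaling (-1.27), but the number that fell ranged from 38 with the replicate number as a block and GC-corrected offsets, 69 with GC-corrected offsets alone (then 41 rose) and 86 with DESeq2, to 248 with total nuclear scaling. It was 12 of 52 among intervals with a mean of at least 50 counts, and 51 without CTCF vehicle replicate 1 as well as without CTCF vehicle replicate 2.

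Among the named intervals RAD21 fell most at chr9:79254901-79255345, an interval 316 kb from TLE4, a transcriptional corepressor. Its 53 and 31 fragments under vehicle became 2 and 3 under sorbitol, for a log2 fold change of -3.08 (SE 0.61, edgeR adjusted p = 0.014; without RAD21 vehicle replicate 2, 0.072 by edgeR). CTCF fell in the same interval, from 77 and 43 to 4 and 5 counts (log2 fold change -2.28, edgeR adjusted p = 0.00089), and H3K27ac did not pass (32 and 16 against 30 and 29). At chr5:50962823-50963509, 116 kb from PARP8, a gene for a mono-ADP-ribosyltransferase, RAD21 counted 60 and 34 against 3 and 4 (-2.76, edgeR adjusted p = 0.016), and CTCF 158 and 127 against 35 and 37 (-0.58, edgeR adjusted p = 0.061). Its RAD21 call was lost with GC-corrected offsets (edgeR adjusted p = 0.054) and without RAD21 vehicle replicate 2 (edgeR, 0.072). DESeq2 called both (adjusted p = 0.016 each).

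A further pair of intervals with the consensus had other values. At chr5:108642082-108642678, 105 kb from FER, a tyrosine kinase gene, CTCF counted 99 and 61 with vehicle and 4 and 4 with sorbitol (log2 fold change -2.87, SE 0.46, edgeR adjusted p = 5.1e-05), while RAD21, with 23 and 15 against 7 and 5, did not pass (-0.72). The difference of the CTCF and RAD21 responses there did not pass either (edgeR interaction, adjusted p = 0.24). At chr11:116276293-116277160, 471 kb from BUD13, a splicing factor gene, CTCF had the most counts of the class, 574 and 379 against 215 and 233, which after scaling was 89.4 ± 0.399 and 113 ± 2.18 CPM (log2 fold change 0.34, edgeR adjusted p = 0.041). This last change had no stable sign, at -0.22 with GC-corrected offsets and -0.11 with total nuclear scaling. Both intervals were picked after their values were seen, for their fall and their level.

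Across all 2761 single-copy intervals the CTCF counts were 0.629 times as high with sorbitol as with vehicle and the RAD21 counts 0.702 times, with no overlap of the groups. For CTCF, 337 of 1081 tested fell and 67 rose (median log2 fold change -0.87). With GC-corrected offsets these were 171 and 110 (median -0.40), and with total nuclear scaling 543 and 44. Over all tested intervals 20.7% were called lower and 19.5% higher for CTCF. For RAD21 11 of 176 fell and 5 rose (median -0.87), where 1.45% of all tested intervals were called lower and 3.34% higher. With GC-corrected offsets RAD21 rose in 11 and fell in 4 of the single-copy intervals, at a median of -0.47. The direction of its calls thus depends on that correction while the sign of its median does not. Intervals without the CTCF consensus also had negative medians: the median for CTCF was -0.78 in 203 intervals with AP-1 or TEAD letters and -1.05 in 381 with none of the letters. In other non-promoter parts of the table the median for CTCF was -0.61 (intronic) and -0.55 (intergenic within 100 kb of a protein-coding gene), and at promoters 0.42, which was -0.02 with GC-corrected offsets and also with total nuclear scaling. The single-copy median had no steady trend with distance to the gene: from 100 to 150 kb it was -0.79, then -0.93, -0.88 and -1.07 up to 1000 kb, and -0.63 beyond.

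The CTCF falls and rises named by rule lay outside the class with the consensus. They are the 3 largest of each among called intervals above the median level. In each of the 3 falls the best CTCF match had 2 mismatches, where the class allows at most 1. In the rises it had 3 to 5. At chr13:62357991-62358580, a single-copy interval 930 kb from a protein-coding gene, CTCF counted 184 and 111 with vehicle and 9 and 4 with sorbitol (log2 fold change -3.05, SE 0.37, edgeR adjusted p = 1.2e-06). At chr3:94336166-94336760, 204 kb from NSUN3, a mitochondrial tRNA methyltransferase gene, it counted 83 and 68 against 5 and 2 (-3.00, edgeR adjusted p = 7.7e-05). The third, chr1:143393057-143393734, is a repeated interval with a median of 6 copies of its words, where counts were 209 and 154 against 8 and 8 (-3.08, edgeR adjusted p = 1.2e-07). In each of these intervals both sorbitol libraries were far below both vehicle libraries.

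The 3 rises had almost no counts with vehicle and passed the count filter through the sorbitol libraries, so their fold changes are imprecise. Among them, chr14:104300667-104301115, 120 kb from KIF26A, a kinesin family gene, was single-copy, with 5 and 2 CTCF counts against 59 and 59 (log2 fold change 5.44, SE 0.43, edgeR adjusted p = 1.2e-09). The other two were repeated. At chr1:144152667-144153265, with 79.5% GC, the counts were 4 and 2 against 62 and 88 (5.98, edgeR adjusted p = 1.2e-10). At chr10:9407106-9407658, 1330 kb from GATA3, the counts were 1 and 0 against 52 and 26, a ratio of 210 with a 95% counting interval of 36.5 to 8380. Confidence limits of this kind reflect counting error alone, since reads copied by PCR are no separate molecules. The rises had GC contents of 57.7% to 79.5% and the falls of 41.8% to 54.7%.

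The RAD21 rises named by rule were all repeated: chr2:239737550-239738106, with 81.0% GC and 154 kb from NDUFA10, and a pair of neighbours on chromosome 21.

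That pair lies in the ribosomal DNA of the short arm of chromosome 21, in the sense that the nearest annotated gene of any type is a ribosomal RNA gene, 1245 and 2505 bp away. In chr21:8259439-8260914 CTCF counted 597 and 403 with vehicle and 2676 and 2604 with sorbitol, or 94.0 ± 1.89 and 1330 ± 75.5 CPM (log2 fold change 3.82, SE 0.15, edgeR adjusted p = 2.2e-15). RAD21 counted 201 and 103 against 628 and 507 (2.87, edgeR adjusted p = 0.00014) and eGFP-YAP 341 and 352 against 547 and 540 (2.65, edgeR adjusted p = 9.8e-08). H3K27ac rose less, with 56 and 56 against 141 and 183 (1.05, edgeR adjusted p = 0.00024), and its response was 2.42 below that of CTCF on the log2 scale (SE 0.24, edgeR interaction, adjusted p = 8.2e-14). The neighbour, chr21:8258179-8258519, had log2 fold changes of 3.92 for CTCF, 2.95 for RAD21 and 2.67 for eGFP-YAP, each called, and of 0.87 for H3K27ac (edgeR adjusted p = 0.15). Their words occur a median of 8 times in the assembly, so counts cannot be given to 1 copy.

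Mitochondrial-like intervals were higher for CTCF (1100 and 1500 against 2520 and 2580 per 1000000 nuclear counts) and for eGFP-YAP (4870 and 5260 against 9640 and 11700). For RAD21 the groups overlapped (4620 and 6590 against 5070 and 5560), and for H3K27ac the sorbitol libraries were lower (132 and 135 against 101 and 97.2). All 8 tested rose for CTCF, 7 of 10 for eGFP-YAP and 1 of 7 for RAD21, and 1 of 6 fell for H3K27ac. Over all tested intervals 19.5%, 5.34% and 3.34% were called higher for these 3 and 14.5% lower for H3K27ac, so the last count is near that share. The largest, chr17:22521217-22521590, aligns to the mitochondrial genome over 99.5% of its length at 89.4% identity, and was the interval with the most CTCF counts (2729 and 2544 against 1929 and 2008; log2 fold change after scaling 0.95, edgeR adjusted p = 4.4e-05). The mitochondrial share of the libraries moved with these values for CTCF and eGFP-YAP; whether reads of mitochondrial DNA are counted in these intervals was not tested.

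**Figure D2:**
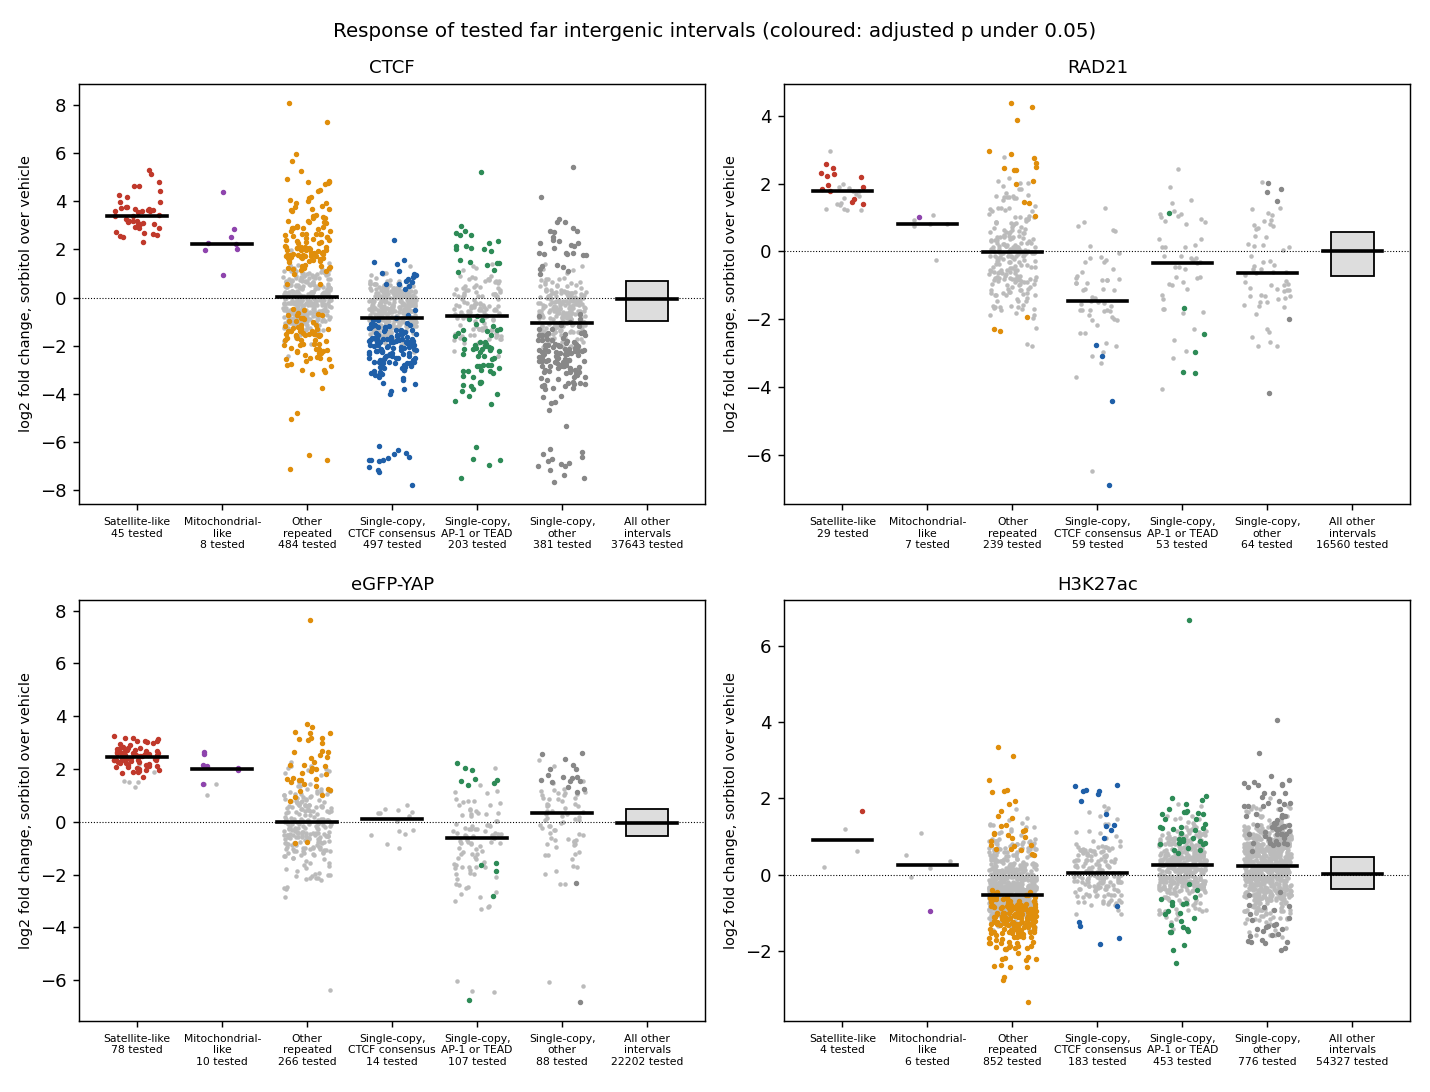
Log2 fold change (sorbitol over vehicle, edgeR) of every tested far intergenic interval by class; coloured points have an adjusted p under 0.05 and grey points do not (in the last single-copy class the called points are dark grey), bars are medians, the box gives the quartiles of all other tested intervals, and the y range differs between panels. For CTCF all 45 tested satellite-like intervals are called above 0 and the 3 single-copy medians lie between -0.78 and -1.05; points near -7 have no counts in the sorbitol libraries.

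For eGFP-YAP, 144 rose and 9 fell of 563 tested far intergenic intervals. Over all tested intervals 5.34% were called higher and 1.49% lower. The far intergenic median log2 fold change was 0.26, or -0.42 with total nuclear scaling (then 113 rose and 70 fell). Without the satellite-like intervals 72 rose. Single-copy intervals had overlapping groups, at 10200 and 10400 against 9970 and 10500 per 1000000 nuclear counts, and 25 of 209 tested rose while 7 fell (18 and 42 with total nuclear scaling). Within this sum, 34 single-copy intervals had a width of 381 bp, give or take 1 base. Their counts were 1830 and 2100 against 3320 and 3760 (1.81 times), and 15 of their 20 tested rose. They were grouped after their values were seen, so their contrast with the other single-copy intervals is a description and not a test. The other 2727 had 8390 and 8290 against 6650 and 6760 (0.804 times, no overlap), and 10 of 189 tested rose while 7 fell. The 10 rises were near the share called higher over all tested intervals. The same 34 were 2.91 times as high for CTCF, against 0.572 times in the other 2727. Those with AP-1 or TEAD letters, the letters of the factors through which YAP reaches DNA, had 4010 and 4090 against 3180 and 3170 (0.784 times), and 8 of their 107 tested rose while 5 fell (median -0.63; 7 and 34 with total nuclear scaling). Single-copy intervals with none of the letters were at 1.21 times and those with the CTCF consensus at 0.800 times.

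The 3 falls of eGFP-YAP named by rule all held both AP-1 and TEAD letters. At chr5:158054213-158055393, 195 kb from CLINT1, a clathrin adaptor gene, eGFP-YAP counted 63 and 79 with vehicle and 5 and 5 with sorbitol (log2 fold change -1.86, SE 0.49, edgeR adjusted p = 0.027). At chr12:4030961-4031714, 158 kb from PARP11, it counted 73 and 86 against 7 and 6 (-1.65, edgeR adjusted p = 0.029), and at chr13:64723613-64724207 104 and 62 against 8 and 6 (-1.57, edgeR adjusted p = 0.031). None of these 3 calls held with DESeq2 (adjusted p 0.065, 0.070 and 0.078), and each was lost without eGFP-YAP vehicle replicate 1 or vehicle replicate 2 (edgeR adjusted p 0.053 to 0.52); the first 2 were also lost without sorbitol replicate 1 (edgeR adjusted p 0.062 and 0.058). H3K27ac in the first of them rose, with 83 and 80 counts against 170 and 167 (0.56, edgeR adjusted p = 0.020). In the second it fell, with 83 and 112 against 89 and 76 (-0.73, edgeR adjusted p = 0.0099), and in the third it did not pass.

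The eGFP-YAP rises named by rule lay in repeated sequence. They were chr17:23016261-23016686 (log2 fold change 3.36), chr4:50556083-50556328 (3.35) and the satellite-like chr16:34097234-34097584 (3.16), with edgeR adjusted p of 0.00022, 0.00046 and 4e-05. Words of the first 2 occur a median of 1180 and 434 times in the assembly. In the chromosome 17 interval 58.0% of bases equal the base 171 positions earlier. Levels there were low with vehicle, at 1.40 ± 0.309, 1.24 ± 0.0798 and 2.24 ± 0.184 CPM, against 14.8 ± 1.80, 13.2 ± 1.75 and 20.3 ± 0.0392 with sorbitol (SD, n = 2).

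H3K27ac counts were lower with sorbitol in the other repeated intervals and higher in the single-copy intervals. In other repeated intervals its counts were 8340 and 8120 per 1000000 nuclear counts with vehicle and 5640 and 6370 with sorbitol (0.729 times). Of 852 tested, 180 fell while 29 rose (median log2 fold change -0.54), where 14.5% of all tested intervals were called lower. Class means were 8230 with vehicle and 6000 with sorbitol. Of these, 1410 and 366 came from the 7 chromosome 21 intervals described below, which share reads. The ratio without those 7 was not computed. In single-copy intervals the counts were 5890 and 5910 against 6940 and 6740 (1.16 times), and 104 of 1412 rose while 54 fell (median 0.22), where 8.59% of all tested intervals were called higher, a larger share than that of the 104. With GC-corrected offsets the single-copy counts were 68 that rose and 83 that fell (median 0.06), while the repeated class kept 165 that fell and 41 that rose. With DESeq2 97 of the repeated class fell, and of the single-copy intervals 19 rose and 28 fell; DESeq2 gave no adjusted p for 1109 of the 2274 tested far intergenic intervals. Without H3K27ac sorbitol replicate 1, 88 of the repeated class fell, while 38 and 35 single-copy intervals rose without sorbitol replicate 1 and without sorbitol replicate 2. For CTCF the repeated class had 115 that rose and 78 that fell of 484, and with total nuclear scaling 94 and 126; 39.9% of the class was called, close to the 40.2% of the whole table.

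The falls of H3K27ac named by rule, and the interval with the most H3K27ac counts, belong to one repeat on the short arm of chromosome 21. There 7 far intergenic intervals share a best tandem period of 139 bp, and they were grouped after their values were seen. Over their whole length 38.2% to 45.4% of bases equal the base 139 positions earlier. The sequence printed last above is the best-matching period of 1 of them. In the largest, chr21:6368997-6372763, H3K27ac counted 3251 and 3133 with vehicle and 1077 and 920 with sorbitol, or 518 ± 8.35 and 115 ± 1.41 CPM (log2 fold change -2.17, SE 0.06, edgeR adjusted p = 1.2e-25). The 3 named falls, chr21:7656745-7659878, chr21:7096779-7099825 and chr21:7478557-7481574, had log2 fold changes of -2.43, -2.40 and -2.38. All 7 fell, from -2.43 to -1.45. After TMM scaling none of the 7 was called for CTCF or RAD21 (edgeR), with medians of -0.01 and -0.13, and eGFP-YAP fell in 2 of 7, with a median of -0.62. Per 1000000 nuclear counts, summed over the 7, H3K27ac had 0.260 times its vehicle counts, eGFP-YAP 0.412 times (2790 and 2750 against 1130 and 1160), CTCF 0.751 times (1350 and 1390 against 1030 and 1030) and RAD21 0.762 times (2520 and 2260 against 1890 and 1740). The groups did not overlap for any antibody on that scale. Words of these intervals occur a median of 2 to 6 times in the assembly, so the intervals share reads and are not independent of each other.

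**Figure D3:**
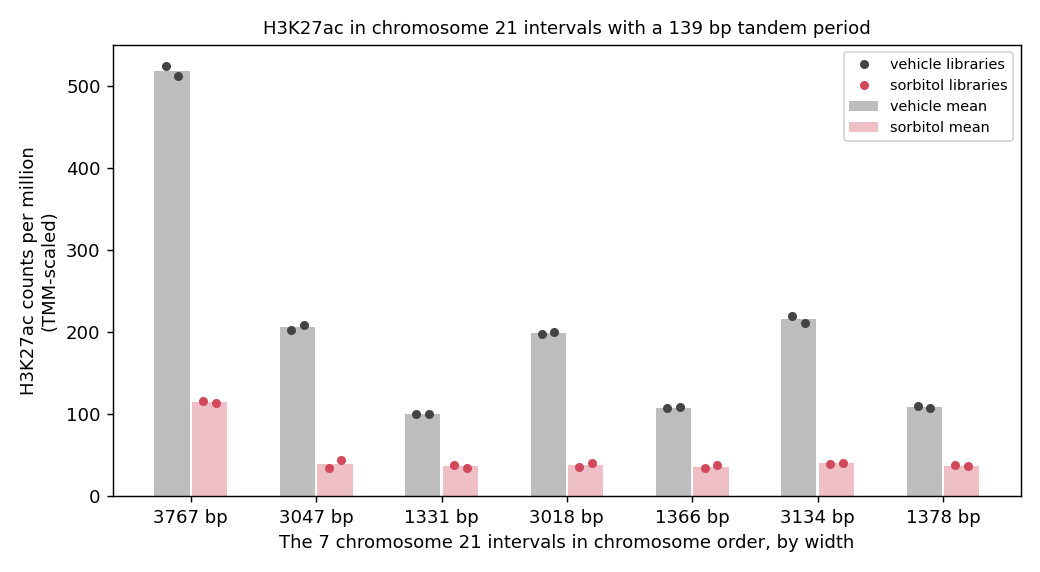
H3K27ac CPM after TMM scaling in the 7 chromosome 21 intervals with the 139 bp period; bars are means of 2 libraries, points are libraries, and the y axis starts at 0. All sorbitol points are below all vehicle points of the same interval, with 518 against 115 CPM in the widest.

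H3K27ac rises were smaller and lay in weak intervals: chr16:86845324-86846255 had 3.81 ± 0.306 CPM with vehicle and 11.1 ± 0.852 with sorbitol (log2 fold change 1.53, edgeR adjusted p = 5e-05). The next, chr4:49709235-49709762 (1.29) and chr21:8987842-8988720 (1.27), were lost without H3K27ac sorbitol replicate 2 (edgeR adjusted p 0.066 and 0.074), the former also with GC-corrected offsets (edgeR adjusted p = 0.058). The second interval by H3K27ac level, chr9:67723815-67725341, fell modestly (1426 and 1421 against 1442 and 1313 raw counts; log2 fold change after scaling -0.54, edgeR adjusted p = 1.6e-08). It is 107 kb from ANKRD20A1 and repeated, with a median of 3 copies.

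Over all far intergenic intervals 235 rose and 415 fell for CTCF of 1618 tested, which is 40.2%, the same share as in the whole table. With GC-corrected offsets 278 rose and 227 fell (median -0.22 in place of -0.56), so the balance of the CTCF calls turned with that correction. For RAD21 36 rose and 14 fell of 451 (66 and 4 with GC-corrected offsets), which is 11.1% against 4.79% in the whole table. For H3K27ac 134 rose and 235 fell of 2274 (16.2% against 23.1% in the whole table). The median log2 fold change of the far intergenic intervals was below that of the other intervals by 0.52 for CTCF, 0.16 for RAD21 and 0.09 for H3K27ac, and above it by 0.30 for eGFP-YAP. Taken within each library, the difference between far intergenic and other intervals changed by -0.28, -0.04, -0.05 and 0.37 in the same order, with exact permutation p of 0.33, 0.67, 0.33 and 0.33. Against intergenic intervals within 100 kb of a gene alone, the difference was -0.01 for CTCF and 0.53 for RAD21, and against intronic intervals 0.05 and 0.47. With GC-corrected offsets it was -0.09 for CTCF and 0.05 for RAD21. For eGFP-YAP it was -0.04 without the satellite-like intervals and -0.23 in single-copy intervals, and between 0.01 and 0.21 without 1 library, lowest without eGFP-YAP sorbitol replicate 2. For H3K27ac it was 0.19 in single-copy intervals. Each of the 4 differences thus changed sign under at least 1 of these choices. Scaling to total nuclear counts moved the median of all tested intervals from -0.06 to -0.50 for CTCF, -0.01 to -0.24 for RAD21, -0.04 to -0.70 for eGFP-YAP and 0.02 to 0.16 for H3K27ac; far intergenic calls then split into 191 that rose and 669 that fell for CTCF, 24 and 18 for RAD21, and 224 and 172 for H3K27ac.

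Responses of CTCF and RAD21 went together from interval to interval. Over the 413 far intergenic intervals tested for both, Pearson's r was 0.767 and Spearman's rho 0.796, as a description: intervals share libraries, base composition and, for repeats, reads. In that set 33 rose and 10 fell for both, and none was called in opposite directions. The other intervals of the table had r = 0.655 over 16227, with 468 higher and 182 lower for both and 4 opposite. CTCF and eGFP-YAP responses had r = 0.687 over the far intergenic intervals tested for both. Of these, 107 rose and 1 fell for both and 1 was called in opposite directions. For this pair the other intervals had r = 0.347 over 19193, with 851 higher and 19 lower for both and 65 opposite. Satellite-like intervals gave 41 of the 107 joint rises, and r was -0.192 within the 44 tested for both. Single-copy intervals gave 23 of them, with r = 0.544 over 116. Between CTCF and RAD21, r was 0.295 within the 59 intervals with the CTCF consensus and -0.134 within the 29 satellite-like intervals. Both values were below that of this pair over all far intergenic intervals. The CTCF and RAD21 responses were compared directly as well. By edgeR's interaction test they differed in 18 of 1947 tested far intergenic intervals, 2 with the higher and 16 with the lower response in RAD21. Of all tested intervals 0.83% differed, 0.127% with the higher and 0.704% with the lower response in RAD21.

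CTCF and H3K27ac responses showed no such relation (r = -0.0482 over 772 intervals), and 32 intervals were called in opposite directions, 20 as higher for both and 10 as lower for both. Among the other intervals 2976 of 29417 were called in opposite directions, 630 as higher and 372 as lower for both (r = -0.115). By the interaction test they differed in 476 of 3307 far intergenic intervals (21.6% of all tested intervals differed, 12.3% with the higher and 9.3% with the lower response in H3K27ac), 348 with the higher and 128 with the lower response in H3K27ac. Of 595 single-copy intervals with the CTCF consensus, 109 (18.3%) had the higher response in H3K27ac and 1 the lower (median difference 1.47 on the log2 scale). Of 12604 other nuclear intervals with the consensus, 2945 (23.4%) had the higher and 567 the lower response in H3K27ac (median difference 0.89). In satellite-like intervals 9 of 62 differed, all with the lower response in H3K27ac.

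**Figure D4:**
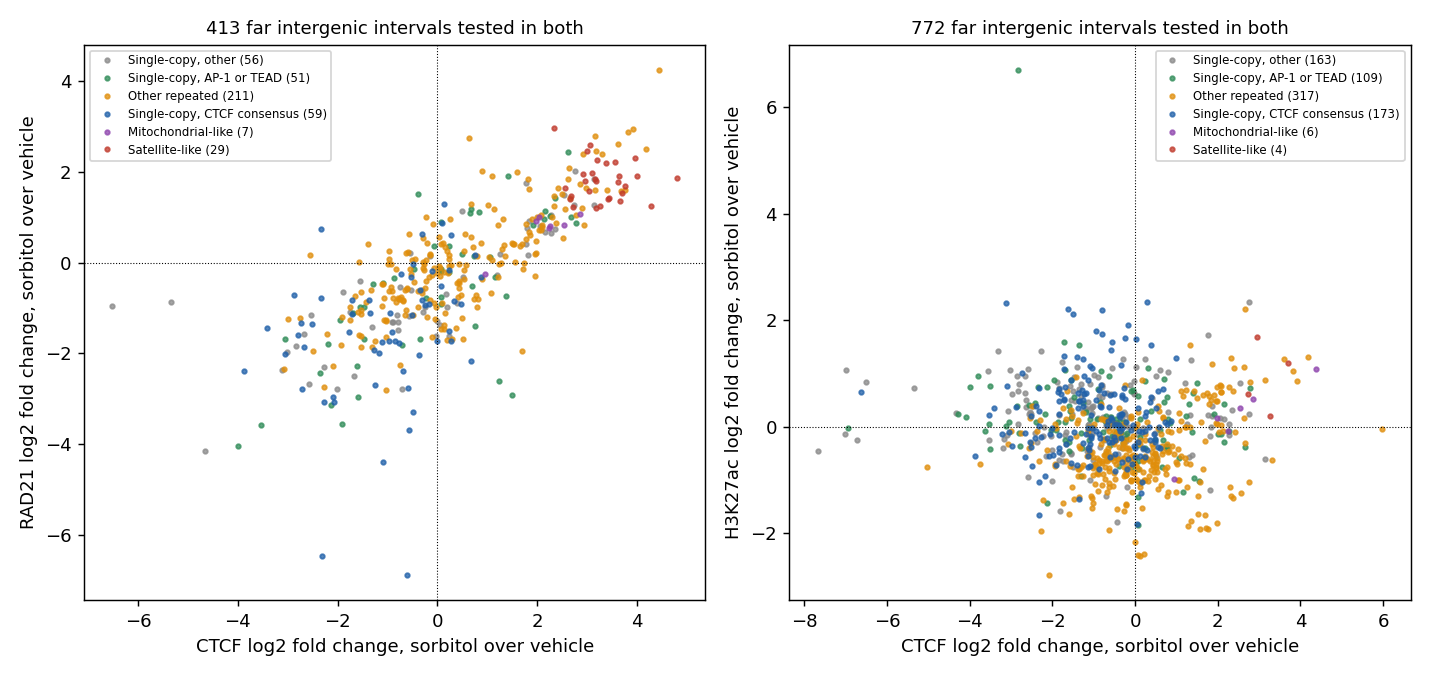
Log2 fold change of RAD21 (left, 413 intervals) and H3K27ac (right, 772 intervals) against that of CTCF in far intergenic intervals tested for both, coloured by class; each point is 1 interval. On the left satellite-like intervals are at the upper right and intervals with the CTCF consensus mostly at the lower left (r = 0.767 over all); on the right no such trend is seen (r = -0.0482).

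Genes that flank long gene-poor stretches are often developmental regulators with distant enhancers. Of 131 such genes on a list, 58 were the nearest protein-coding gene of 214 far intergenic intervals, led by NR2F2 (17), an orphan nuclear receptor, DACH1 (16), a transcriptional regulator of eye and limb, and SOX9 (13), the regulator of cartilage and testis. Near them CTCF fell in 20 and rose in 4 of 55 tested (median -1.07), RAD21 fell in 3 and rose in 1 of 14, eGFP-YAP rose in 1 of 14, and H3K27ac rose in 11 and fell in 7 of 134 (median 0.26). Over all tested intervals 20.7% were called lower for CTCF and 1.45% for RAD21, 5.34% were called higher for eGFP-YAP, and 8.59% were called higher and 14.5% lower for H3K27ac, so the H3K27ac rises were near the share in the whole table. Over all single-copy intervals the medians were -0.87 for CTCF and 0.22 for H3K27ac. Of 22 YAP target genes, 5 were nearest to 19 far intergenic intervals, among them NT5E (7), CRIM1 (5) and TGFB2 (4). CTCF fell in 1 of 6 tested near them and H3K27ac fell in 1 of 10; for RAD21 and eGFP-YAP 1 interval each could be tested and was not called (edgeR).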

How the data were processed

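CUT&Tag was done in HEK293 cells with eGFP-YAP, in 16 libraries (4 antibodies, vehicle or sorbitol, 2 libraries each). Whole-number fragment counts per interval were deposited by the authors in 1 table for all libraries. The submitters' processing notes name hg38, Trim Galore, FastQC, BWA 0.7.17, SAMtools, Picard, bedtools 2.31.1 and MACS2 2.2.6, without roles; how reads with several matches were treated is not given in the sources used here, and it bears on every repeated interval.

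Intervals were annotated on hg38 with GENCODE release 44. Copy number is from 32-base words counted over 194 assembly sequences, and mitochondrial similarity from any blastn 2.17.0 alignment at an E-value of at most 1e-10. The share of soft-masked bases was not computed, since the reference is in capitals only. The intervals and lists were chosen with earlier results of these data known. Counts were tested per antibody with edgeR 4.0.16 in R 4.3.3 (robust quasi-likelihood test, TMM, filterByExpr with a minimum of 10, Benjamini-Hochberg over all tested intervals, threshold 0.05); differences between antibodies were tested as an interaction in 1 fit. Shares of summed counts were compared by exact permutation over libraries with scipy 1.17.1. Intervals named by rule are, per antibody, the 3 largest rises and 3 largest falls among called intervals above the median level whose groups do not overlap, and the 2 of highest level. Of the RAD21 falls so named, 1 is not reported here. Fits were tested on simulated data with 200 changed intervals: of changes of 2-fold, 16.0% were recovered for CTCF, 0.0% for RAD21, 16.5% for eGFP-YAP and 40.5% for H3K27ac, so many changes of that size are missed at this depth. Alternatives were DESeq2 1.42.0 with its local dispersion trend (the parametric trend converged for H3K27ac only under some computing settings, with other numbers of calls), other filters and scalings, offsets from a lowess on GC content (span 0.3), a replicate block, and leaving out each library. The replicate numbers did not pair libraries: correlations of same-numbered deviations were between -0.00867 and 0.00821.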

Additional observations from a re-analysis of the deposited data

Results flagged for a closer look

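The responses to sorbitol were compared between antibodies by edgeR's interaction test (adjusted p under 0.05). Those of CTCF and RAD21 differed in 18 of 1947 tested far intergenic intervals (0.924%), close to the 0.83% of all tested intervals. Those of CTCF and H3K27ac differed in 476 of 3307 (14.4%), a smaller share than the 21.6% of all tested intervals. The values below are the response of the second antibody minus that of CTCF, on the log2 scale. CTCF libraries enter both comparisons, so these are not independent of each other.

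Among the intervals where CTCF rose, the RAD21 response at chr1:144152667-144153265 was -6.09 relative to CTCF, and the H3K27ac response was -5.71 there, -5.59 at chr14:104300667-104301115, -2.42 at chr21:8259439-8260914, -1.99 at chr21:8987842-8988720, -1.57 at the mitochondrial-like chr17:22521217-22521590 and -1.30 at chr9:67723815-67725341. Where CTCF fell, the H3K27ac response was higher by 3.12 at chr1:143393057-143393734, 3.53 at chr13:62357991-62358580 and 4.42 at chr3:94336166-94336760. In the chromosome 21 repeat, where CTCF was not called, it was -2.19 at chr21:7656745-7659878, -2.10 at chr21:7096779-7099825, -2.23 at chr21:7478557-7481574 and -1.79 at chr21:6368997-6372763. Intervals named by rule for a CTCF rise or fall were picked for a large CTCF change, which favours a large difference. The second antibody had few counts in some. RAD21 had 9 and 1 with vehicle against 4 and 0 with sorbitol at chr1:144152667-144153265. H3K27ac had 9 and 3 against 7 and 5 at chr14:104300667-104301115. Both were below the count filter when tested alone.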

How the results depend on the processing

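Of 269 alternative values for 25 main results, 160 kept their direction and size, 77 moved, 13 were no longer past the threshold, 4 newly passed it and 15 changed sign; the causes were not tested.

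The number of called far intergenic intervals was 154 for H3K27ac with DESeq2 (no adjusted p for 1109 intervals), 86 for RAD21 with no count filter, and 116, 23, 68 and 166 for CTCF, RAD21, eGFP-YAP and H3K27ac at a mean count of 50 or more. It was 404, 16, 32 and 158 in single-copy intervals, 328 for CTCF and 181 for H3K27ac over 250 kb from a gene, and 81 for eGFP-YAP without satellite-like intervals. DESeq2 gave 86 CTCF falls at the CTCF consensus and 97 H3K27ac falls in other repeats. GC-corrected offsets gave 69 of the former and 27 RAD21 rises in satellites, and total nuclear scaling gave 248 and 9. A mean of at least 50 counts gave 12 and 85 of these falls and 4, 3 and 26 satellite rises for CTCF, RAD21 and eGFP-YAP. Intervals where CTCF and RAD21 differed numbered 32 with GC-corrected offsets, 10 with total nuclear scaling and 10 with a mean of at least 50 counts, which gave 99 for CTCF and H3K27ac.

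With the replicate number as a block, RAD21 calls were 31 (main 50); the block with GC-corrected offsets gave 395 CTCF calls, 27 RAD21 rises in satellites and 38 CTCF falls at the consensus. The block moved no other count by over 1.5 times.

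The median difference from other intervals (CTCF, RAD21, eGFP-YAP, H3K27ac) was -0.09 and 0.05 for the first 2 and -0.21 for the last with GC-corrected offsets, -0.01 and 0.53 for the first 2 against near intergenic intervals, and 0.05, 0.47 and -0.31 for CTCF, RAD21 and H3K27ac against intronic ones. Among intervals averaging 50 counts or more it was -0.08, 0.01 and 1.61 for the first 3, and with no count filter -0.41, -0.03 and -0.05 for CTCF, eGFP-YAP and H3K27ac. It was -0.42, 0.04, 0.60 and -0.20 over 250 kb from a gene, -0.83, -0.87, -0.23 and 0.19 in single-copy intervals, and -0.56 for CTCF and -0.04 for eGFP-YAP without satellites.

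The ratio of shares, sorbitol over vehicle, in the same order was 0.648, 0.699 and 0.805 for the first 3 over all counts, 1.14, 0.966, 1.49 and 0.827 over 250 kb from a gene, and 0.629, 0.702, 0.995 and 1.16 in single-copy intervals. Without intervals above 0.1% of counts it was 0.786, 0.822 and 1.15 for the first 3, and without satellites 0.899 for CTCF and 1.15 for eGFP-YAP. Between antibodies, in percentage points, over all counts CTCF minus RAD21 was 0.034, and H3K27ac was below CTCF by 0.556, RAD21 by 0.522 and eGFP-YAP by 0.0146. CTCF minus RAD21 was -0.0338 in single-copy intervals and -0.556 without those above 0.1%; RAD21 minus eGFP-YAP was 0.378 and 0.596 there and 0.72 without satellites. CTCF minus eGFP-YAP was -0.604 over 250 kb from a gene.

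Without 1 library, called intervals were 354 to 614 (CTCF), 47 to 82 (RAD21), 105 to 172 (eGFP-YAP) and 182 to 303 (H3K27ac), and differing responses 5 to 41 (RAD21) and 303 to 404 (H3K27ac). The lowest counts were without CTCF vehicle replicate 1, RAD21 vehicle replicate 1, eGFP-YAP vehicle replicate 1 and H3K27ac sorbitol replicate 1; the 41 was without RAD21 vehicle replicate 1. Falls at the consensus were 51 to 139 and in other repeats 88 to 172. Median differences were -0.55 to -0.51, -0.38 to -0.13, 0.01 to 0.21 and -0.12 to -0.05. Differences between antibodies were instead taken without all libraries of 1 replicate number. They were -0.968 to -0.842 for CTCF minus RAD21. Over H3K27ac they were 1.49 to 1.51 (CTCF), 2.35 to 2.46 (RAD21) and 2.06 to 2.18 (eGFP-YAP). With 2 libraries each they cannot pass the exact test. At chr11:116276293-116277160 the CTCF change was -0.22 with GC-corrected offsets, with or without the block, and -0.11 with total nuclear scaling.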

Other observations

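Over all far intergenic intervals the eGFP-YAP rises were unevenly spread by distance to a protein-coding gene. From 500 to 1000 kb 43 of 99 tested rose and beyond 1000 kb 39 of 79 did, while from 100 to 150 kb 17 of 148 rose. Over all tested intervals 5.34% were called higher. In single-copy intervals alone the counts were 4 of 30, 1 of 8 and 6 of 76 in the same bins. The counts over all include the satellite-like intervals.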
